A study of Mus musculus with 6 samples.

Results

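The clonotypes described here are kappa chain (IgK) clonotypes in which the V and J gene segments were separated by at least 1 inserted base. Each clonotype stands for one CDR3 nucleotide sequence, CDR3 being the loop of the antibody variable region that is encoded where V and J are joined. The members were selected on the positions that the assembly software MiXCR gave for the V end and the J begin within CDR3, and every clonotype with at least 1 base between them was taken. There were 664 such clonotypes among the 3514 IgK clonotypes of 2 mice and the 18182 clonotypes of all 6 libraries. Inserted means only that a base was assigned to neither segment.

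The libraries came from 100000 sorted naïve FO (follicular) B cells of the spleen of 1 iB-μMT mouse and of 1 B6 (C57BL/6) mouse, and 1 heavy chain (IgH), 1 IgK and 1 lambda chain (IgL) library was made from each. The iB-μMT mouse was a μMT recipient, whose own B cells are blocked by a disrupted Ighm gene. It was 8 to 10 weeks old at transplantation, received 5 Gy of sublethal irradiation and 5000000 iHPCs, hematopoietic progenitors made in culture from the embryonic stem cell line iR9X2, and drank water with 1 mg/mL doxycycline. The iR9X2 cells have a C57BL/6 background, carry GFP, and express Runx1, Hoxa9 and Lhx2 from 1 doxycycline-dependent cassette in Rosa26. The iB cells were taken 4 weeks after transplantation. The B6 mouse was the wild-type control, and its age is not given in the sources used here. The FO gate was the same in both mice (which included CD23++CD21+IgD++IgM+). Expression of CD23 and CD21 was not measured, since the tables hold immunoglobulin clonotypes only, and IgD and IgM are not compared here. With 1 mouse per group, no test between the mice was possible, and intervals cover counting error over clonotypes only. Below, iB cells and B6 cells stand for the libraries of these mice.

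In a developing B cell the RAG recombinase cuts beside one Igkv and one Igkj segment, and the ends are trimmed and then ligated. Bases can enter a junction in different ways. Terminal deoxynucleotidyl transferase (TdT) adds untemplated N nucleotides and is known for its preference for guanine, and an opened hairpin can leave P nucleotides, which are complementary to the last bases of the segment. In mice TdT acts mainly at the pro-B cell stage, when IgH is rearranged, so that IgK junctions are known as mostly free of N nucleotides and IgH junctions as rich in them.

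The following CDR3 sequences (5′ to 3′) show the forms the inserts took, with inserted bases in capitals and V and J bases in lower case. The first pair held the most reads of all members in both mice, and the third came next.

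IGKV10-96 with IGKJ1, 1 base inserted: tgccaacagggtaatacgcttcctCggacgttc

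IGKV10-96 with IGKJ1, 2 bases inserted: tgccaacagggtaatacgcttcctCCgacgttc

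IGKV4-57-1 with IGKJ5, 5 bases inserted: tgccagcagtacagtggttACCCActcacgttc

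IGKV12-41 with IGKJ1, none inserted, shown for its V part that ends in cctcc: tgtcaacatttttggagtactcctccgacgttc

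IGKV6-15 with IGKJ2, an insert after a V segment trimmed by 4 bases: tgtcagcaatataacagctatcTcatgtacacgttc

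IGKV6-15 with IGKJ2, an insert after an untrimmed V segment: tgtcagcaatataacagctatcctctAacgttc

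The first IGKV10-96 clonotype had 3457 reads in iB cells and 3668 in B6 cells, and the second had 2115 and 2182. The IGKV4-57-1 clonotype had 1054 and 1320 reads. All 3 were thus found in both mice at similar read counts. The IGKV12-41 clonotype, which is no member, had 337 and 500 reads. Of the IGKV6-15 clonotypes, the trimmed one had 184 and 13 reads, and the untrimmed one had 0 and 481 reads.

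Inserts were present in a similar minority of IgK clonotypes of both mice. In iB cells 333 of 1818 clonotypes held one, or 18.3% (95% exact binomial interval 16.6 to 20.2), and in B6 cells 331 of 1696, or 19.5% (17.7 to 21.5). The difference was -1.2 percentage points, and each share lay within the interval of the other. The members held fewer of the reads than of the clonotypes, with 4.44% of 562884 reads and 4.86% of 534314 reads. They used 72 of the 99 V genes of iB cells and 74 of the 98 of B6 cells. Among the other clonotypes, V and J met exactly in 861 and 747, and the ends given for V and J overlapped in 624 and 618. In the IgL libraries 12 of 51 and 9 of 42 clonotypes held an insert, and intervals around these shares were wide (12.8 to 37.5% and 10.3 to 36.8%).

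Most inserts were of 1 or 2 bases. A single base was inserted in 168 clonotypes (50.5% of the members) of iB cells and 179 (54.1%) of B6 cells, and 73 clonotypes of each mouse held 2 bases. Inserts of 3 to 7 bases were found in 59 and 46 clonotypes. Inserts of at least 8 bases were found in 33 clonotypes of each mouse. The mean length was 3 bases in iB cells (SD 3.80, n = 333) and 3.02 in B6 cells (SD 4.58, n = 331), and the longest inserts had 21 and 47 bases. Within the same cells, the V-D junction of IgH held inserts in 83.5% and 88.7% of clonotypes with a D segment and the D-J junction in 45.9% and 71.2%.

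**Figure D1:**
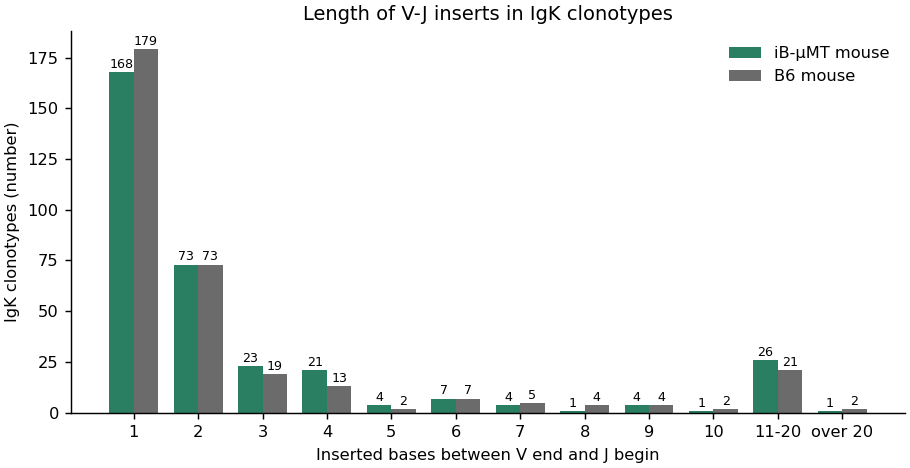
Number of IgK clonotypes (y axis) by the number of bases inserted between V and J (x axis, with lengths over 10 grouped) in iB cells (green) and B6 cells (grey). Inserts of 1 base made up 168 and 179 clonotypes. Lengths of 11 to 20 bases are pooled in 1 bar per mouse, so its height cannot be set against that of a single length.

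The values next to the limit of 1 base are given as a description. Just inside it, clonotypes with 1 inserted base had a median of 25 reads in iB cells and 21 in B6 cells. Just outside it, clonotypes in which V and J met without an insert had medians of 45 and 44 reads. The mean CDR3 lengths inside and outside were 33.8 and 32.9 bases in iB cells and 33.6 and 32.7 in B6 cells.

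Inserts of 1 base were rarely guanine. Of the 168 inserts of 1 base in iB cells, 73 were thymine, 56 cytosine, 28 adenine and 11 guanine (6.55%). Of the 179 in B6 cells, 58 were thymine, 68 cytosine, 39 adenine and 14 guanine (7.82%). Cytosine and thymine led in both mice. Over all inserted bases, guanine and cytosine together made up 47.9% in iB cells and 50.2% in B6 cells. The IgH junctions of the same cells differed in their inserts of 1 base. Guanine made up 46.4% of the 1-base inserts between V and D and 34.2% of those between D and J in iB cells, and 48.8% and 34.3% in B6 cells. By Fisher's exact test (two-sided, Benjamini-Hochberg over 8 comparisons chosen after the base counts were seen), the guanine share was lower in IgK than in either IgH junction of the same mouse, with adjusted p between 5.50e-26 and 2.78e-15 in iB cells and between 3.76e-26 and 1.30e-14 in B6 cells. An inserted base next to a trimmed end cannot equal the base that was trimmed there, and base shares after trimmed and untrimmed V segments are given apart below.

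**Figure D2:**
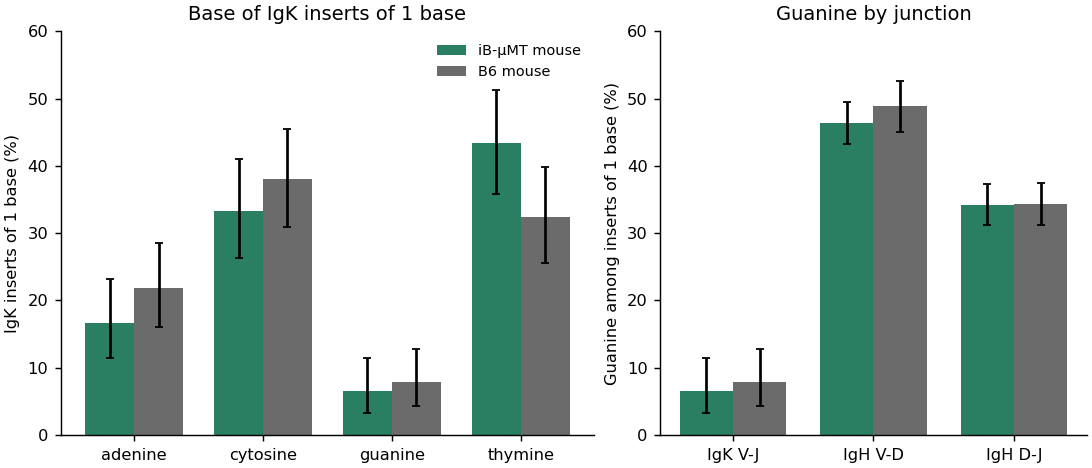
Left, share of each base among IgK inserts of 1 base (y axis, percent), and right, share of guanine among inserts of 1 base at the IgK V-J, IgH V-D and IgH D-J junctions (y axis, percent), in iB cells (green) and B6 cells (grey). Bars start at 0 and error bars are 95% exact binomial intervals over clonotypes, and the guanine bar is at 6.55% and 7.82% in IgK and above 34% in IgH.

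V genes differed in how often they carried inserts. Every V gene with at least 20 clonotypes in a library was compared with the rest of that library by Fisher's exact test (two-sided, Benjamini-Hochberg). In iB cells 4 of 42 V genes (9.52%) had a higher share and 0 a lower share, against 7 at an unadjusted p under 0.05. In B6 cells 2 of 39 (5.13%) had a higher share and 0 a lower share, against 6 unadjusted. The median V gene held inserts in 17.3% and 17.9% of its clonotypes. Of the 37 genes tested in both mice, 2 were called in both, IGKV4-57-1 and IGKV1-117.

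IGKV4-57-1 (chr6:69544368-69544892 in GRCm38.p6, per RefSeq) held an insert in 22 of 23 clonotypes of iB cells (95.7%, against 17.3% as the median gene) and in 19 of 20 of B6 cells (95%), with adjusted p of 2.73e-14 and 1.38e-11 by Fisher's exact test. IGKV1-117 (chr6:68121091-68121825) held one in 12 of 27 (44.4%) and 16 of 29 (55.2%), with adjusted p of 0.0153 and 0.000351 by the same exact test. IGKV14-126 (chr6:67896177-67896642), which RefSeq lists as a V segment pseudogene, held one in 13 of 21 (61.9%) and 9 of 22 (40.9%), with adjusted p of 0.000219 and 0.193 by the exact test. IGKV10-96 (chr6:68631965-68632430) held one in 15 of 32 (46.9%) and 14 of 36 (38.9%), with adjusted p of 0.00250 and 0.115 by the exact test. The last 2 genes were past the threshold in iB cells and not in B6 cells, and the difference between the mice was not tested. These calls depended on the clonotypes taken. For inserts of at least 2 bases, IGKV14-126 passed in B6 cells (adjusted exact p = 0.00154), and IGKV10-96 did not pass in iB cells (adjusted exact p = 0.234). With at least 5 reads IGKV10-96 passed in B6 cells (adjusted exact p = 0.0356).

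No V gene was called lower than the rest of its library. The lowest share was that of IGKV1-88 in iB cells, at 0 of 23 clonotypes, a share whose exact interval reaches 14.8% and whose limit by 3 counts is 13.04% (exact test, adjusted p = 0.115). IGKV3-2 and IGKV4-74 held 1 insert each in 23 clonotypes of iB cells. In B6 cells the lowest were IGKV13-84 and IGKV3-7, each with 2 of 24, and IGKV5-48 with 2 of 22. In the other mouse these genes held 4 of 20 (IGKV3-2), 4 of 26 (IGKV4-74), 5 of 20 (IGKV13-84), 3 of 27 (IGKV3-7) and 5 of 28 (IGKV5-48), so the order at the low end was not the same in both mice.

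**Figure D3:**
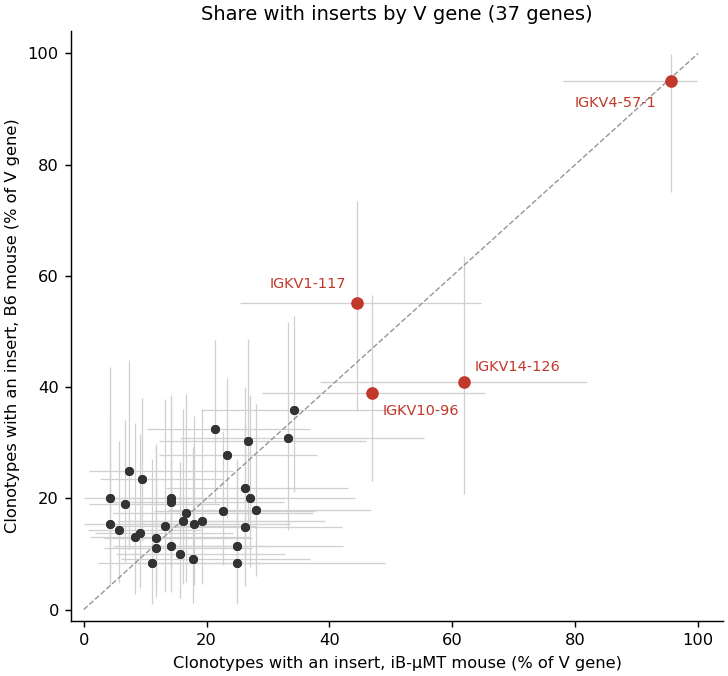
Share of clonotypes with an insert for the 37 V genes with at least 20 clonotypes in both libraries, in iB cells (x axis, percent) and B6 cells (y axis, percent), with 95% exact binomial intervals as grey lines and equality as a dashed line. The 4 V genes called in iB cells are red, and IGKV4-57-1 stands at 95.7% and 95%.

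In each of the 4 V genes called in iB cells, at least 95.65% of the inserts after 1 V end began with the same base, whatever the J gene. Inserts after their other V ends are not covered by this. The part of CDR3 that MiXCR gave to V differed in length between V genes, with a median of 26 bases over 102 genes and fewer than 24 bases in 3. In 33 V genes it ended in CCTCC after 26 bases. The V gene reference that MiXCR used is not given in the sources used here and no germline V sequences were used, so whether inserted bases after an untrimmed V end were germline bases was not tested. In the same way, untrimmed means only that all bases of the V part were kept. In 8 V genes the V part ended in CCT after 24 bases, among them IGKV1-117, IGKV10-96 and IGKV1-110. Where these 8 genes were untrimmed, 108 of 136 clonotypes had an insert, and 107 of the 108 inserts began with C. Of the 61 with at least 2 bases, 46 began with CC, so that V part and insert together read CCTCC. The 8 genes were not alike in this. IGKV6-13 had 1 such insert of 8, IGKV2-112 had 0 of 3 and IGKV9-123 had 0 of 2, while IGKV1-110 had 12 of 13, IGKV1-117 had 13 of 14 and IGKV10-96 had 10 of 11. The first 2 sequences printed above show this beside the uninserted IGKV12-41 clonotype. By gene, 23 of 27 untrimmed IGKV1-110 clonotypes, 20 of 22 of IGKV1-117 and 24 of 30 of IGKV10-96 held an insert. Inserts of these 3 genes were joined to all 4 J genes.

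The V part of IGKV4-57-1 had only 19 bases and ended in GTGGTT. All 40 inserts after its untrimmed end began with A, in both mice and with 4 J genes. Of the 31 inserts with at least 3 bases, 31 began with ACC, and of the 19 with at least 5 bases, 18 began with ACCCA. The run GGTTACCCA, made of the end of the V part and the start of these inserts, was present inside the V part of 6 other genes of the IGKV4 family (IGKV4-51, IGKV4-58, IGKV4-62, IGKV4-75, IGKV4-78 and IGKV4-81). Its clonotypes with the most reads for the other J genes are shown to compare the inserts.

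IGKV4-57-1 with IGKJ1: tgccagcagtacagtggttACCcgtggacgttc

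IGKV4-57-1 with IGKJ2: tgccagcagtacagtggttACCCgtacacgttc

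IGKV4-57-1 with IGKJ4: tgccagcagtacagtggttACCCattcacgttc

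The IGKJ1 clonotype had 156 reads in iB cells and 12 in B6 cells, the IGKJ2 clonotype 227 and 341, and the IGKJ4 clonotype 369 and 284. Each was found in both mice.

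IGKV14-126 held a long recurrent insert. In 20 clonotypes, 11 of iB cells and 9 of B6 cells, the V segment was trimmed by 17 bases and all 20 inserts began with TTTTATGAGTTTC. Between 9 and 13 consecutive bases of these inserts were also present in the V part of IGKV14-111. They were joined to all 4 J genes.

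IGKV14-126 with IGKJ1: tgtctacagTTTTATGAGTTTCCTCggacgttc

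IGKV14-126 with IGKJ2: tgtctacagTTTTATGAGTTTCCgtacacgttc

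IGKV14-126 with IGKJ4: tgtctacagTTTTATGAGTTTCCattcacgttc

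IGKV14-126 with IGKJ5: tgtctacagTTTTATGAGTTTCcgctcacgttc

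IGKV14-126 untrimmed and without an insert, with IGKJ2: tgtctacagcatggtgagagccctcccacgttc

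The V part of IGKV14-111 (26 bases): TGTCTACAGTATGATGAGTTTCCTCC

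The clonotypes with an insert had 151 and 141 reads with IGKJ1, 216 and 270 with IGKJ2, 52 and 52 with IGKJ4, and 142 and 222 with IGKJ5, in iB cells and B6 cells. The untrimmed clonotype had 0 and 64. Found in both mice were 8 of the trimmed clonotypes, that is 8 of the 11 of iB cells and 8 of the 9 of B6 cells. The 20 clonotypes held 647 reads in iB cells and 798 in B6 cells, and the IGKV14-126 clonotypes without an insert held 1359 and 1590.

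To describe the members apart from such genes, V genes were set aside if, at any V end, at least 90% of at least 5 inserts began with the same base. This was chosen after the inserts had been seen. It took 16 V genes, which held 44.7% of the members of iB cells and 44.4% of those of B6 cells, and 72.1% and 74.5% of the members' reads. In the remaining V genes 184 of 1380 clonotypes (13.3%, 11.6 to 15.2) and 184 of 1239 (14.9%, 12.9 to 16.95) held an insert, with 1.63% and 1.73% of the library's reads. No V gene was called among these. Guanine made up 7.27% of their 1-base inserts in iB cells and 8.47% in B6 cells. Against the V-D and D-J junctions of IgH, the adjusted p of Fisher's exact test was at most 7.55e-10 in these genes too.

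In the same remaining V genes, the first inserted base was compared with the last V base kept. MiXCR extended no V segment of these libraries beyond its end, while it did so on the J side in 21.9% and 18.1% of the members. After an untrimmed V segment, the first inserted base was the complement of the last V base in 44 of 75 clonotypes of iB cells (58.7%, 46.7 to 69.9) and 31 of 63 of B6 cells (49.2%, 36.4 to 62.1). After a trimmed V segment, it was in 13 of 109 (11.9%, 6.51 to 19.5) and 21 of 121 (17.4%, 11.1 to 25.3). The intervals of untrimmed and trimmed segments did not overlap in either mouse. Base shares also differed between these clonotypes. Over inserts of 1 to 7 bases after an untrimmed V segment, guanine made up 29.5% of the bases of iB cells (21.8 to 38.1) and 24.1% of those of B6 cells (15.6 to 34.5), and cytosine 10.8% and 13.8%. After a trimmed V segment guanine made up 9.35% (5.07 to 15.5) and 10.1% (5.97 to 15.6), and cytosine 39.6% and 37.9%. In CDR3s without an insert guanine made up 20.5% and 20.7%. Over IgH inserts of 1 to 7 bases, guanine made up 47.7% (V-D) and 40.7% (D-J) in iB cells, and 48.5% and 39.2% in B6 cells. These values are a description, as the comparison was chosen after the sequences had been seen. The 16 V genes left out had been chosen by their first inserted base, so that choice bears on these shares. At the untrimmed ends of IGKV1-110 and IGKV1-117, left out, 23 of 23 and 20 of 20 inserts began with C after T, no complement. So did 22 of 23 for IGKV10-96, 14 of 14 for IGKV6-13 and 11 of 11 for IGKV9-120. For IGKV9-124 it was 9 of 9 and for IGKV2-112 5 of 5, all left out. At the untrimmed end of IGKV4-57-1, also left out, 40 of 40 began with A after T, the complement. The complement also began 8 of 8 for IGKV5-43 and 5 of 5 for IGKV4-80, likewise left out. IGKV6-15, with the complement in 9 of 12, stayed in. The share over all members was not computed.

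No J gene passed the adjusted threshold in 8 exact tests of its use with and without inserts. IGKJ4 was used by 19.9% of the members and 14.1% of the other clonotypes of B6 cells (Fisher's exact test, p = 0.0105, adjusted p = 0.0840), and by 17.1% and 15.8% in iB cells (adjusted exact p = 0.564). IGKJ5 was used by 29.4% and 23.7% in iB cells (exact p = 0.0349, adjusted p = 0.140) and by 28.4% and 26.3% in B6 cells (adjusted exact p = 0.510). The values of IGKJ1 were 27.6% and 31.4% in iB cells and 27.5% and 31.7% in B6 cells. Those of IGKJ2 were 25.8% and 29.0%, and 24.2% and 27.8%. The pair with the most inserts was IGKV17-121 with IGKJ2, with an insert in 13 of its 41 clonotypes over both mice. Its clonotypes with the most reads at each insert length are shown.

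None inserted: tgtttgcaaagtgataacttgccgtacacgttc

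1 base inserted: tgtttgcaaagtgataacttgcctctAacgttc

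2 bases inserted: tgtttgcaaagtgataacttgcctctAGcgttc

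The uninserted clonotype had 4218 and 6824 reads, the 1-base clonotype 0 and 296, and the 2-base clonotype 100 and 179, in iB cells and B6 cells. All 3 CDR3s had 33 bases, with V kept in full and J trimmed further in the inserted forms.

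Trimming is not independent of the choice of members and is described without a test. The V segment was untrimmed in 49.5% of the members and 23.9% of the other clonotypes of iB cells, and in 45.3% and 24.4% in B6 cells. The mean number of V bases lost was nevertheless larger in the members (3.21 against 2.50, and 3.37 against 2.48). In members with at least 8 inserted bases a mean of 14.2 V bases was lost in each mouse, and in those with 1 or 2 inserted bases 1.86 and 1.90. The mean number of J bases lost was 1.79 against 1.12 and 1.95 against 1.11. Without clonotypes of fewer than 5 reads, the difference in V trimming was -0.12 bases in iB cells and 0.15 in B6 cells.

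CDR3 was slightly longer in the members. The mean length was 33.9 bases (SD 2.96) against 32.8 (SD 2.90) in iB cells, and 33.6 (SD 3.57) against 32.7 (SD 2.76) in B6 cells. Most clonotypes of either kind had 33 bases or a neighbouring in-frame length, and none was out of frame. Without the 16 V genes described above, the difference in mean length was 1.17 bases in iB cells and 0.36 in B6 cells. A length of 36 bases was found in 30.3% of the members and 17.4% of the others of iB cells, and in 24.2% and 14.1% in B6 cells. A length of 30 bases was found in 13.5% and 23.9%, and in 14.5% and 24.03%.

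Clonotypes with inserts were found in both mice less often than those without. A clonotype counted as found in both mice if its CDR3, V gene and J gene were identical there. This held for 86 of 333 members of iB cells (25.8%, 21.2 to 30.9), against 808 of 1485 other clonotypes (54.4%, 51.8 to 56.97). In B6 cells these numbers were 86 of 331 (26.0%, 21.3 to 31.1) and 808 of 1365 (59.2%, 56.5 to 61.8). Fisher's exact test gave adjusted p of 3.89e-21 and 3.50e-27 over 6 tests. Of the 86 shared members, 55 used one of the 16 V genes with a recurrent first base. In the remaining V genes 31 members were shared, 16.8% of those of either mouse, against 52.3% and 59.3% of the clonotypes without inserts. The 16 V genes had been set aside on the inserts of both mice pooled. A shared member thus counted in each mouse toward setting its gene aside, and that choice bears on the 16.8%.

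Members also held fewer reads, and reads moved with sharing. Among clonotypes found in 1 mouse only, the share with more reads than the median of these clonotypes differed by -10.2 percentage points between members and others in iB cells and by -9.89 in B6 cells (Fisher's exact test, p = 0.00738 and 0.0113). Reads of a clonotype depend on both the number of its cells and the RNA per cell, which cannot be told apart here. Members had between 1 and 3457 reads with a median of 21 in iB cells, against a median of 52 for the others, and between 1 and 3668 with a median of 19 in B6 cells, against 44. In iB cells 27.0% of the members and 54.5% of the others had more reads than the library median, and in B6 cells 30.8% and 54.0%, with adjusted p of 9.68e-20 and 4.19e-14 by Fisher's exact test. The median fell from 25 reads at 1 inserted base to 22, 13 and 6 reads at 2, 3 to 7 and at least 8 bases in iB cells. In B6 cells the medians were 21, 21, 11 and 9.

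Within classes of reads, the difference in sharing was clear in the middle class. Among clonotypes with 10 to 99 reads, 20.7% of the members and 39.9% of the others of iB cells were found in both mice, and 23.2% and 50% of those of B6 cells (Fisher's exact test, adjusted p = 1.49e-06 and 1.83e-10 over 6 tests, with classes chosen after the values were seen). With at least 100 reads, 39 of 48 members (81.2%) and 88.1% of the others were shared in iB cells (adjusted exact p = 0.206), and 34 of 45 (75.6%) and 91.0% in B6 cells (adjusted exact p = 0.00660). With fewer than 10 reads, 8.25% and 15.4%, and 8.91% and 10.6%, were shared (adjusted exact p = 0.143 and 0.836).

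**Figure D4:**
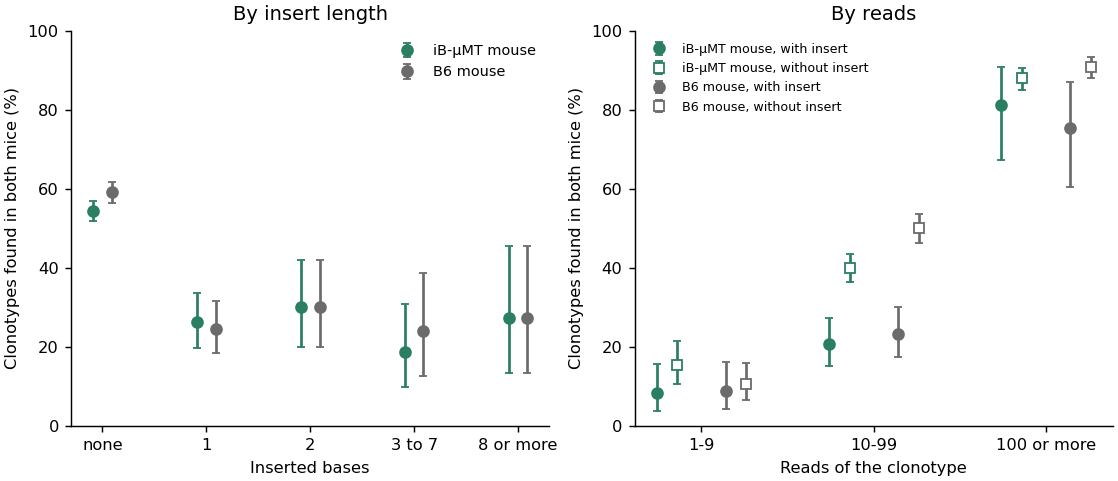
Share of IgK clonotypes found in both mice (y axes, percent) by the number of inserted bases (left) and by reads of the clonotype (right, circles with and open squares without an insert), in iB cells (green) and B6 cells (grey), with 95% exact binomial intervals. Every class with an insert lies below the clonotypes without one on the left, and at 10 to 99 reads the values are 20.7% against 39.9% and 23.2% against 50%.

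Measures of read quality moved with the members as well. A single read supported 15.3% of the members and 3.84% of the others in iB cells, and 14.8% and 4.98% in B6 cells. The lowest base quality over CDR3 reached 38 in 79.6% and 93.8%, and in 72.5% and 89.7%. A clonotype was called near-identical if it differed at 1 position from one of equal length, V gene and J gene that had 10 times its reads or more, and this share was 13.2% and 8.01%, and 12.99% and 6.96%. The part of sequencing or amplification errors in the members was not tested. With near-identical clonotypes merged, 289 of 1655 and 288 of 1558 clonotypes held an insert.

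Stop codons within CDR3 were rare. They were found in 8 of 333 members and 8 of 1485 other clonotypes of iB cells (2.40% and 0.539%, Fisher's exact test, adjusted p = 0.00459 over 6 tests), and in 5 of 331 and 16 of 1365 of B6 cells (1.51% and 1.17%, adjusted exact p = 0.583). With clonotypes of a single read left out, the difference of iB cells was 0.574 percentage points (exact p = 0.219) and that of B6 cells was -1.002 percentage points (exact p = 0.142).

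Long inserts were few and took little of the reads. The 33 inserts of at least 8 bases in each mouse held 870 and 1161 reads, with medians of 6 and 9 reads, and 14 and 11 of them had 1 or 2 reads. IGKV14-126 accounted for 11 and 9, and IGKV4-57-1 for 4 and 4. Of the remaining 18 and 20, 14 and 9 contained at least 8 consecutive bases of the V part of another V gene. At least 10 V bases were trimmed in 28 and 26 of the 33. The longest insert of each mouse is shown.

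iB cells, IGKV12-98 with IGKJ2, 21 bases, 26 reads: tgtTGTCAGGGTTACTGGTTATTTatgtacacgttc

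B6 cells, IGKV8-30 with IGKJ5, 47 bases, 3 reads: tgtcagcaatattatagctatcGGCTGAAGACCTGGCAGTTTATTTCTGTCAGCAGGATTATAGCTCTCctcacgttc

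The second of these had a CDR3 of 78 bases. From position 26 of its insert, counted from 1 at the insert's 5′ end, it continued into the J part with 25 of the 26 bases of the IGKV6-32 V part. Neither clonotype was found in the other mouse.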

How the data were processed

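IgK, IgH and IgL libraries of 1 iB-μMT mouse and 1 B6 mouse were analysed. The authors amplified total RNA by 5′ RACE, sequenced it as paired reads on an Illumina MiSeq, used bcl2fastq, and assembled clonotypes with MiXCR. Their processing notes name mm10, and their clonotype filters are not given in the sources used here. The authors deposited for each clonotype a count of reads, the same as a fraction of all reads in the library, a score (lowest base quality over CDR3), and the V, D and J ends. No molecular identifiers are described. IgK depths were 562884 and 534314 reads, and 3 reads correspond to 0.000533% and 0.000562% of them.

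Inserted bases were those between V end and J begin. V parts were the commonest base per position over the clonotypes aligned there. Shares have 95% exact (Clopper-Pearson) intervals and were compared within each library by Fisher's exact test. Since 1 library was made per mouse, the tests compare clonotypes within 1 library, or IgK with IgH of the same mouse, and no test compares the mice. All 102 IGKV names matched RefSeq (GRCm38.p6). Named V genes were the 3 highest and 3 lowest shares in each library and those called in both. Named clonotypes were those with the most reads or the longest insert, and those of the V-J pair with the most inserts, and further genes and clonotypes were chosen after seeing values. The members and lists were chosen with earlier results of these data known. Tests ran in SciPy 1.17.1 under Python 3.11.15 with pandas 2.3.3, and the V gene test was checked on simulated data.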

Additional observations from a re-analysis of the deposited data

Results flagged for a closer look

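For 2 of the named V genes the share of clonotypes with an insert lay on opposite sides of the rest of the library in the 2 mice. IGKV13-84 differed from the rest by 6.76 percentage points in the iB-μMT mouse (5 of 20 clonotypes) and by -11.3 in the B6 mouse (2 of 24). IGKV3-2 differed by -14.2 percentage points in the iB-μMT mouse (1 of 23) and by 0.49 in the B6 mouse (4 of 20). The difference between the mice was not tested, and neither gene passed the threshold in either mouse.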

How the results depend on the processing

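Values are given for the iB-μMT mouse first and the B6 mouse second. Among the values that answer a comparison, 149 stayed within their interval, within 1.5 times as a count, or on the same side of the threshold under an alternative, 45 moved, 4 reversed, 2 lost and 1 gained the threshold. For sharing, reads and stop codons the exact p of the alternatives was not adjusted, unlike that of the main results. The lower share of members found in both mice and the lower share with reads above the median kept direction and an unadjusted p under 0.05 under all alternatives run. The latter difference shrank from -27.5 to -10.2 and from -23.2 to -9.89 percentage points without shared clonotypes, and sharing could not be computed with shared clonotypes left out. No J gene passed under any alternative. The difference in share between the mice (-1.2 percentage points, interval -3.83 to 1.43) was -3.82 without shared clonotypes, -0.020 for at least 2 inserted bases and 0.60 without substitution-like inserts (defined next), all within that interval.

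The share with inserts (18.3% and 19.5%) was 16.5% in the iB-μMT mouse with at least 2 reads, 15.7% and 16.9% with at least 5 reads, and 26.7% and 30.6% without clonotypes of both mice. It was 10% and 10.02% for at least 2 inserted bases, 13.3% and 14.9% without the 16 V genes with a recurrent first base, and 4.44% and 4.86% weighted by reads. Without substitution-like inserts it was 10.3% and 9.72%. These inserts equal the V or J bases they replace except at 1 position. The bases replaced were taken as the commonest per position over these clonotypes. The rule takes 145 of 168 and 159 of 179 inserts of 1 base, each of which differs from the base it replaces. A single base next to a trimmed end meets the rule by construction.

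Mean length (3 and 3.02 bases) was 2.47 and 2.46 with at least 5 reads, 5.04 and 5.40 for at least 2 inserted bases, and 4.77 and 5.33 without substitution-like inserts. The G and C share of inserted bases (47.9% and 50.2%) was 44.4% and 45.1% without the 16 V genes. The difference in V trimming (0.70 and 0.89 bases) was 0.11 and 0.31 with at least 2 reads, -0.12 and 0.15 with at least 5 reads, 1.82 and 2.48 for at least 2 inserted bases, and 1.45 and 2.12 without substitution-like inserts. That in J trimming (0.68 and 0.84) was 0.37 and 0.54 without shared clonotypes, 0.42 and 0.51 without substitution-like inserts, and 1.04 in the B6 mouse without the 16 genes. That in CDR3 length (1.11 and 0.92) was 1.85 and 1.56 without substitution-like inserts, and 1.17 and 0.36 without the 16 genes.

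The number of V genes called (4 and 2) was 0 and 0 with a minimum of 40 clonotypes, without shared clonotypes (8 and 5 genes tested) and without the 16 genes. In these settings none of the called genes was tested. The number was 1 in the B6 mouse after merging, 2 in the iB-μMT mouse for at least 2 inserted bases, and 6 in the B6 mouse without substitution-like inserts. IGKV4-57-1, with 20 B6 clonotypes, fell under the minimum and was not tested there with at least 2 or 5 reads or after merging. Without substitution-like inserts IGKV10-96 lost the threshold in the iB-μMT mouse (adjusted exact p = 0.0619) and passed in the B6 mouse (0.0434), as IGKV14-126 did (0.00121). The difference in stop codons (1.86 and 0.34 percentage points) was 0.57 and -1.002 with at least 2 reads and 0.49 and -0.72 with at least 5 reads. In the B6 mouse it was -0.83 without shared clonotypes and 1.959 without the 16 genes (unadjusted exact p = 0.0321), the only alternative in which the unadjusted p was under 0.05 there.

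Differences that had not passed also changed sign. For at least 2 inserted bases, IGKJ1 was at 3.704 and 2.49, IGKJ5 at -3.10 and -4.59, and IGKJ2 at 1.11 percentage points in the B6 mouse. IGKJ1 was at 0.13 without substitution-like inserts and IGKJ4 at -0.66 with at least 5 reads in the iB-μMT mouse. IGKV4-74 was at 0.55 in the B6 mouse without the 16 genes. IGKV5-48 in the iB-μMT mouse was at 2.06 and 2.89 with at least 2 and 5 reads, 4.90 for at least 2 inserted bases, 3.42 after merging, 4.62 without the 16 genes and 4.56 without substitution-like inserts. The cause of these changes was not tested. No paired analysis was possible because each group held 1 library.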
